A study of Mus musculus with 12 samples.

Results

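The genes that encode the proteins of the cytosolic ribosome were followed in the hippocampus of mice heterozygous for a frameshift in Chd8, and of wild-type mice. Members were the rows whose symbol starts with Rpl or Rps and a digit, or is Rpsa, Rplp0, Rplp1 or Rplp2, with a mean of at least 100 normalized counts over the 12 libraries. Kinase genes (Rps6k), pseudogene rows (-ps) and non-coding rows were left out. This gave 82 of 46078 gene IDs. By name 34 belonged to the small subunit (Rps) and 48 to the large subunit (Rpl). Of the 82, 76 encode standard ribosomal proteins. The other 6 are the paralogs Rpl7l1, Rpl22l1, Rpl36al and Rps27l, the retrogene Rps27rt, and Rps19bp1, which encodes a protein that binds Rps19.

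The 12 libraries form 4 groups of 3: mutant males, wild-type males, mutant females and wild-type females. Mutants carried the Asn2373LysfsX2 mutation of Chd8 in heterozygous form, and all mice had the C57BL/6 background and were at postnatal day 25. Chd8 encodes a chromatin remodelling enzyme, and the design asks how this heterozygous mutation alters the hippocampal transcriptome in each sex. Nothing in the labels ties each library to its own animal, so every p-value rests on differences among libraries that could in part be technical. Whole hippocampal RNA was sequenced, so fewer cells of a type and less RNA per cell cannot be told apart.

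A cytosolic ribosome is built from a small subunit, which reads the mRNA, and a large subunit, which joins the amino acids. Each subunit holds ribosomal RNA and a fixed set of proteins, nearly all present in a single copy per ribosome. Many of the mRNAs for these proteins open with a cytosine and a run of pyrimidines, the terminal oligopyrimidine (TOP) tract, through which the kinase complex mTORC1 sets how strongly they are translated. In neurons, ribosomes are found in dendrites and axons as well as in the cell body.

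A TOP-like start was looked for at the RefSeq starts on GRCm38.p6, which cover 62 of the 82 members. Where an annotated start lies some bases off the real one, the run can be missed, so the shares below depend on the annotation. The windows shown give the 10 bases before the annotated start and the 20 from it, 5′ to 3′ on the coding strand, with the pyrimidine run that begins at the start in capitals. Rps6, Rpl15 and Rpl28 show the run in standard ribosomal protein genes. Rps27, its retrogene Rps27rt and its paralog Rps27l are shown because their alikeness bears on how their reads were counted, and Rpl35 because its exons overlap another gene.
Rps6: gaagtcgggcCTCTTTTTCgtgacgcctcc
Rpl15: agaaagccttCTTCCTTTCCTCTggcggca
Rpl28: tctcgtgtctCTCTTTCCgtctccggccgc
Rpl35: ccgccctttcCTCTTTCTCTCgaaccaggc
Rps27: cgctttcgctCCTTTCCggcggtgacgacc
Rps27rt: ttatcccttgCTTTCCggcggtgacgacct
Rps27l: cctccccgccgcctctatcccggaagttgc
The windows lie at chr4:86857348-86857377 on the minus strand for Rps6, chr14:18270967-18270996 on the minus strand for Rpl15 and chr7:4792955-4792984 on the plus strand for Rpl28. Those of the others are chr2:39005112-39005141 on the minus strand for Rpl35, chr3:90213629-90213658 on the minus strand for Rps27, chr9:114982720-114982749 on the minus strand for Rps27rt and chr9:66946076-66946105 on the plus strand for Rps27l. Counted over genes, a cytosine followed by at least 4 pyrimidines stood at the annotated start in 14 of 62 members (22.6%), against 3.01% of the 27025 genes in the table. Within 5 bases of the start it stood in 30 members (48.4%), against 21.2% of all genes. The Rps27l window has no pyrimidine run at the start. Rps27, from base 2 of its annotated start, and Rps27rt, from base 1, share an identical run of 38 bases, which shows how alike the parent gene and its retrogene are. The letters CCGGAAG or, on the other strand, CTTCCGG, a motif bound by ETS family factors, stood in the 300-base promoters of 25 of 62 members (40.3%), against 9.93% of all genes. The E-box letters CACGTG, bound by MYC family proteins and the same on both strands, stood in 9.68% of members and 8.09% of all genes. CTTCCGG itself opens with a cytosine and 4 pyrimidines, so a match of it and a pyrimidine run can be the same letters, whereas CACGTG shares no such stretch. A match is a description of the sequence and not evidence of binding.

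The libraries differed in depth and in a neighbouring tissue. Recovered reads numbered 23721482 to 24654408 in mutant libraries, against 26912998 to 33327314 in wild-type libraries, so depth and genotype cannot be told apart. Chd8 itself had 2383 to 2513 normalized counts in the 6 mutant libraries, against 2751 to 2994 in the 6 wild-type libraries. The groups did not overlap, and limma gave a log2 difference of -0.22 ± 0.03 (SE, adjusted p = 0.0289; exact permutation within the sexes, two-sided, p = 0.005, the smallest it can give). Leaving out any 1 of 10 of the 12 libraries took this adjusted p past 0.05, to between 0.0790 and 0.161, and the exceptions were mutant male 3 and wild-type male 1. The mean log2 level of 4 pyramidal neuron markers was 13.88 to 14.12 in every library. That of 10 choroid plexus markers, a tissue that borders the hippocampus, was 4.93 in mutant male 2, 5.50 in mutant male 3 and 4.96 in wild-type female 1, against 9.52 to 11.2 in the other 9 libraries. No marker of that list was at 0 in any library. Their summed normalized counts ran from 1010 to 158410 in mutant males, against 142740 to 173180 in wild-type males, and from 51702 to 127530 in mutant females, against 860 to 159240 in wild-type females.

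The ribosomal protein genes took close to the same share of the reads in every library. The share was 1.04%, 0.957% and 1.02% in mutant males, against 1.03%, 0.984% and 1.004% in wild-type males. In mutant females it was 1.03%, 1.02% and 1.02%, against 1.001%, 1.07% and 1.05% in wild-type females. The ranges of mutants and wild types overlapped in each sex, and wild-type females held the highest value and mutant males the lowest. Group means were 1.01 ± 0.045% in mutant males, 1.01 ± 0.023% in wild-type males, 1.02 ± 0.0039% in mutant females and 1.04 ± 0.034% in wild-type females (SD, n = 3). In some libraries most members lay on the same side of their mean, and in others they were split. In mutant male 2, 9 of 82 members lay above their own 12-library mean, and the same number did in wild-type male 2, whereas 77 did in wild-type female 2 and 67 in wild-type female 3. In the other 8 libraries the number was 23 to 61, with 42 in mutant male 3 and 44 in wild-type male 1. Of all tested genes, 50.5% to 51.5% lay above their own mean in each library. The median deviation of the members was -0.076 in mutant male 2 and 0.080 in wild-type female 2 on the log2 scale, the lowest and highest of the 12. Mutant male 2 was also the library lowest in choroid plexus markers. Wild-type male 2 and wild-type female 2 were not low in them, at 10.9 and 9.52. The part of cell makeup in these library-wide shifts was not tested.

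**Figure D1:**
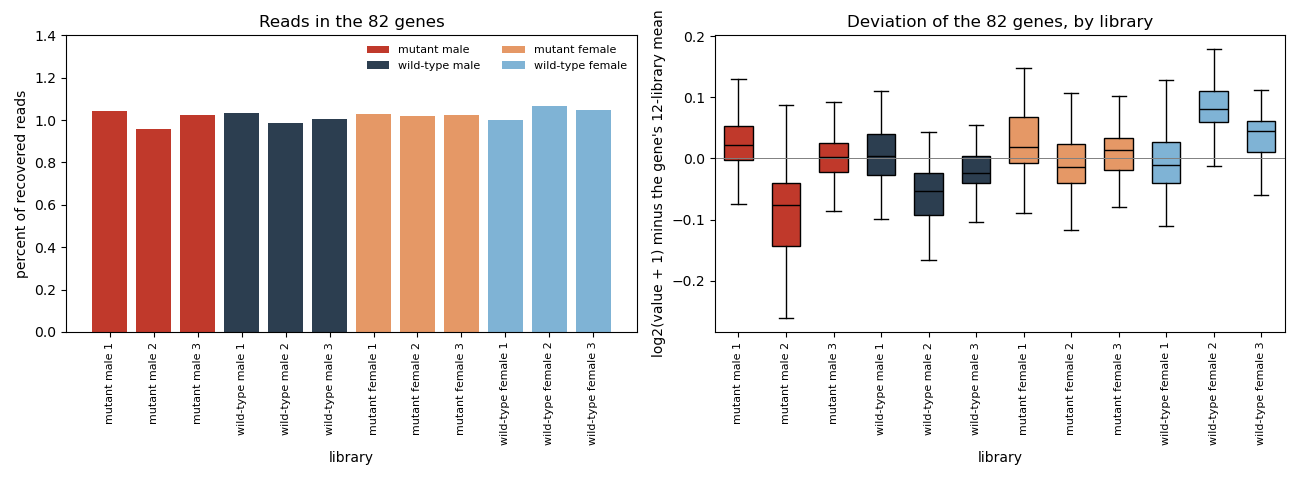
Left, percent of recovered reads in the 82 ribosomal protein genes in each of 12 libraries (bars). Right, log2 deviation of each of the 82 genes from its own 12-library mean (box: quartiles and median, whiskers: up to 1.5 times the box). Shares lie between 0.957% and 1.07%, and the boxes of mutant male 2 and wild-type female 2 stand lowest and highest.

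Levels per length differed widely between genes whose proteins belong to the same particle. A level here is the mean of normalized counts per kilobase of a gene's annotated exons, those of rare transcripts included. These exons covered 499 bases in Rplp1, 2007 in Rpl4 and 6270 in Rps15a, with means of 8520.5, 11113 and 4303 normalized counts. The order and spread of levels therefore depend on the annotated length, and its part in them was not tested. Rplp1, which encodes an acidic protein of the stalk that recruits elongation factors, stood highest at 17075 per kb. It was followed by Rps15 at 7301, Rpl4 at 5537 and Rps3a1 at 5479 per kb. The lowest were Rps19bp1 at 279, Rps27rt at 294, Rpl22l1 at 316 and Rpl7l1 at 321 per kb, none of them a standard ribosomal protein gene. From highest to lowest the levels of all 82 members spanned 61.3-fold, with Rps19bp1 at the low end. Among the 76 standard genes they ran from 17075 down to 379.7 per kb, in Rpl35. The middle range of these 76 genes was much narrower, with quartiles at 1174 and 2526 per kb, a ratio of 2.15. The medians of the subunits were close, at 1688 per kb for 31 standard small-subunit genes and 1661 per kb for 45 large-subunit genes. In the order of levels, neighbours could rarely be told apart: in 77 of 81 neighbouring pairs the ranges over the 12 libraries overlapped. The 4 exceptions were Rplp1 above Rps15, Rps15 above Rpl4, Rps3a1 above Rps29 and Rpl27 above Rpl10a.

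Members with special roles spread over the whole order. The other stalk proteins stood at 3639 per kb for Rplp0, the stalk base, and 1285 per kb for Rplp2, the partner of Rplp1. Rpl5 and Rpl11, which carry the 5S ribosomal RNA and bind Mdm2 when ribosome assembly fails, had 1205 and 1232 per kb, within each other's range. Rps6, the substrate of S6 kinase whose phosphorylation is used as a readout of mTORC1, had 2308 per kb. Rps27a, which is made as a fusion with ubiquitin, had 1688 per kb. Rpl41, the smallest ribosomal protein, had 3983 per kb. Rpl39, a small protein of the tunnel through which the new chain leaves, had 1175 per kb. The laminin-binding Rpsa had 2749 per kb. Each paralog stood below its parent gene, with Rpl22l1 at 316 against 969.6 per kb for Rpl22, Rpl7l1 at 321 against 1984 for Rpl7, Rpl36al at 724 against 985 for Rpl36a, and Rps27l at 391 against 1838 for Rps27.

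**Figure D2:**
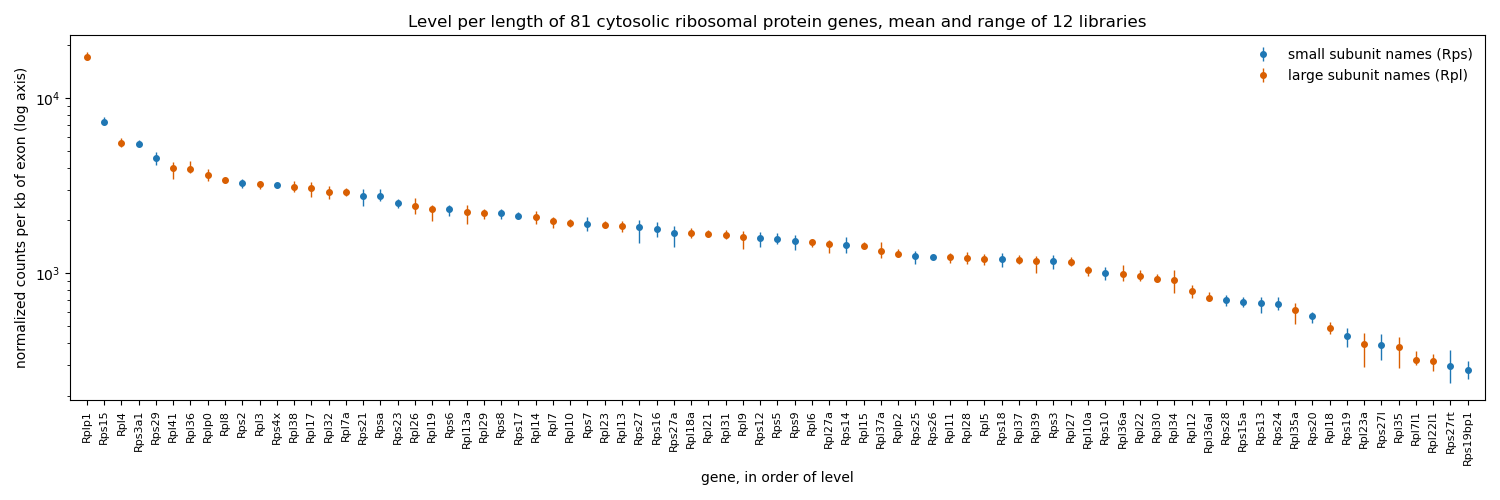
Level of 81 of the 82 genes in normalized counts per kb of exon (log axis), in order from highest to lowest. Points are means of 12 libraries and lines run from the lowest to the highest library. Rplp1 stands alone at 17075, and the lowest 4 are Rps19bp1, Rps27rt, Rpl22l1 and Rpl7l1.

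Just inside the mean of 100 stood Rps27rt at 110.0 normalized counts, Rps19bp1 at 302 and Rps27l at 319. Just outside stood Rpl3l, a muscle paralog, at 13.5, Rpl24 at 11.95 and Rpl39l, a paralog known from testis, at 0.944 normalized counts. Rpl24 encodes a standard large-subunit protein, yet its row held about as few reads as that of the muscle paralog. In its transcripts 81.7% of 50-base stretches also occur in another gene, and 47.0% of its exon bases lie within Gm28037, a transcript on the same strand, whose row was at 0 normalized counts. Shares of 50-base stretches this high also occurred in members with many reads, such as Rpl5 (85.4%) at 4723 normalized counts. They occurred in members with few reads too, such as Rpl23a (85.7%) at 332. The sources used here do not give how reads that match several places were counted, and the part of this in the low value was not tested.

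Ribosomal protein genes varied little between replicates. The median SD within groups was 0.059 on the log2 scale for the 82 members, against 0.112 for all 17496 genes with a mean of at least 10. It was 0.058 for the 5071 tested genes whose mean was at or above the 10th percentile of the members, so genes of like level varied as little. Rps26, a small-subunit protein at the mRNA exit, was the steadiest, with an SD of 0.021 over all 12 libraries. The most variable were Rps27rt at 0.21, Rpl23a at 0.19, Rps27l at 0.18 and Rpl35 at 0.15. Rpl23a and Rpl35 were the only members with at least 50% of their exon bases inside another gene. For Rpl23a, at chr11:78180932-78183584, the main overlap was 59.7% with Tlcd1 on the opposite strand. For Rpl35, at chr2:39001580-39005624, it was 66.2% with Wdr38, also on the opposite strand. The library kit does not keep the strand, so reads in the shared exon bases cannot be told apart. This makes values of Rpl23a and Rpl35 uncertain. Mean normalized counts were 339 for Tlcd1 and 21.5 for Wdr38, against 332 for Rpl23a and 471 for Rpl35. Other genes also hold 85.7% of the 50-base stretches of Rpl23a, 95.1% of those of Rpl35 and 91.1% of those of Rps27rt. Means were low as well in Rps27rt (110.0) and Rps27l (319), and in Rps19bp1 (302), whose SD was 0.11. The part of overlap, shared stretches and low counts in the spread was not tested.

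Across both sexes, no ribosomal protein gene differed between mutant and wild-type hippocampus beyond the threshold. In limma, which tested all 17496 genes together with Benjamini-Hochberg adjustment, 0 of 82 members had an adjusted p under 0.05, and 0.00572% of all tested genes did, that gene being Chd8. At an unadjusted p under 0.05 there were 6 of 82 members (7.32%), against 8.87% of all tested genes. On the recovered reads edgeR gave 5 members, against 9.21% of all tested genes, and DESeq2 gave 5, against 7.14%. The median difference of the members was -0.0063 on the log2 scale, against -7.3e-05 over all tested genes, and 51 of 82 were below 0, against 50.1% of all tested genes. It lay at -0.028 for the small-subunit members, of which 24 of 34 were below 0, and at -0.0018 for the large-subunit members, of which 27 of 48 were. Without mutant male 2 the median over all members was 0.0040, and with upper-quartile scaling 42 members were below 0. These data limit the size of any change. The 95% confidence interval of the difference lay within 0.3 of 0 on the log2 scale for 78 of 82 members, against 63.8% of all tested genes, and within 0.2 for 76 members.

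**Figure D3:**
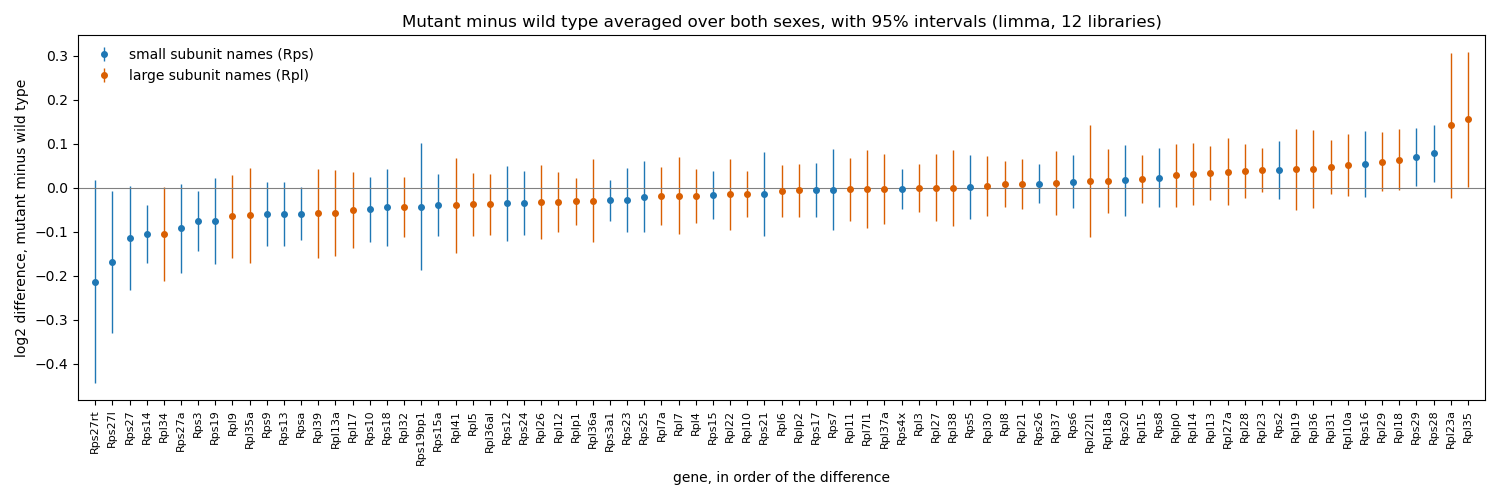
Log2 difference, mutant minus wild type averaged over both sexes, for 81 of the 82 genes in order (points) with 95% confidence intervals from limma (lines). Points run from -0.21 (Rps27rt) to 0.16 (Rpl35), and the widest interval is that of Rps27rt, at -0.44 to 0.02.

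The small-subunit gene Rps14 came closest. It had 3418, 3102 and 3379 normalized counts in mutant males, against 3542, 3556 and 3554 in wild-type males. In females it had 3404, 3368 and 3473 in mutants, against 3559, 3862 and 3594 in wild types. All 6 mutant values were lower than all 6 wild-type values, by a log2 difference of -0.11 ± 0.03 (SE, adjusted p = 0.359 in limma) or 7.05%. Rps14 was the only member with this separation over both sexes, at 1 of 82, against 0.24% of all tested genes that were lower in every mutant library and 0.303% that were higher. Its protein sits on the platform of the small subunit, and partial loss of the human gene is known from a human myelodysplastic syndrome.

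Rps28 and Rps29, small-subunit genes mutated in human Diamond-Blackfan anaemia, had positive differences. Rps28 had 1247, 1247 and 1207 normalized counts in mutant males, against 1172, 1149.6 and 1116 in wild-type males, and 1288, 1245 and 1218 in mutant females, against 1263, 1188 and 1174 in wild-type females. Mutant males lay above all wild-type males, while the female groups overlapped, and the averaged log2 difference was 0.08 ± 0.03 (adjusted p = 0.468, limma). Rps29 had 3186, 3165 and 3074 normalized counts in mutant males, against 3039, 3016 and 2866 in wild-type males, and 3425, 3232 and 3232 in mutant females, against 3305, 3207 and 2979 in wild-type females. Here too only the male groups were separate, with an averaged log2 difference of 0.07 ± 0.03 (adjusted p = 0.539, limma). Rps3, which lines the channel where mRNA enters, had 4976, 4704 and 5298 normalized counts in mutant males, against 5264, 5222 and 5319 in wild-type males. Its values were 5375, 5136 and 5156 in mutant females, against 5271, 5728 and 5489 in wild-type females. The groups overlapped in both sexes, with an averaged log2 difference of -0.08 ± 0.03 (adjusted p = 0.508, limma). Of the 18 genes on the list of human Diamond-Blackfan anaemia genes, 0 passed the threshold, 7 were above 0 and 11 below, with a median of -0.0039 on the log2 scale. The other members with an unadjusted p under 0.05 in limma were Rps27l at -0.17 ± 0.07 and Rpl35 at 0.16 ± 0.07 (log2 difference ± SE).

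The stalk, the 5S particle and the X-linked members stayed near 0. Differences of Rplp0, Rplp1 and Rplp2 were 0.03 ± 0.03, -0.03 ± 0.02 and -0.0055 ± 0.03 on the log2 scale (± SE), and those of Rpl5 and Rpl11 were -0.04 ± 0.03 and -0.0037 ± 0.03. Rps6 stood at 0.01 ± 0.03 and Rps27a at -0.09 ± 0.05. The 4 X-linked members, Rpl10, Rpl36a, Rpl39 and Rps4x, ran from -0.059 to -0.0023. The narrowest interval among them was that of Rps4x, -0.05 to 0.04, or -3.24% to 3.01%. Rpl22 and its paralog Rpl22l1 stood at -0.02 ± 0.04 and 0.02 ± 0.06, and Rpl41 at -0.04 ± 0.05. None of the genes named here had an adjusted p under 0.05 in limma, and the smallest was 0.590, that of Rps27a.

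In males alone, 0 members passed the threshold in limma, as did 0 (0%) of all tested genes. At an unadjusted p under 0.05 there were 8 of 82 members (9.76%), against 10.3% of all tested genes. There were 7 by edgeR, against 9.25% of all tested genes, and 6 by DESeq2, against 7.46%. The groups did not overlap for 10 members that were higher in mutant males (12.2%, against 8.37% of all tested genes) and for 4 that were lower (4.88%, against 7.68%). Rps27l, a paralog of Rps27 that p53 induces, had the smallest p. It had 311, 269 and 262 normalized counts in mutant males, against 359, 365 and 357 in wild-type males. All mutant males lay below all wild-type males, with a log2 difference of -0.36 ± 0.11 (adjusted p = 0.407, limma). In females the values were 342, 298 and 320.2 in mutants, against 264, 346 and 339 in wild types, which overlap. The low wild-type female was replicate 1, and mutant male 2 and mutant male 3 were the lowest males, so the 3 libraries low in choroid plexus markers held the 3 lowest Rps27l values. The part of cell makeup in this was not tested.

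Rpl23a, which lies at the exit of the tunnel where the signal recognition particle docks, was next. It had 386, 335 and 328 normalized counts in mutant males, against 321, 247 and 276 in wild-type males. Mutant males lay above wild-type males, with a log2 difference of 0.32 ± 0.11 (adjusted p = 0.423, limma), and its females overlapped at 377, 348 and 312 in mutants, against 359.5, 369.8 and 330.3 in wild types. Rpl29 had 2615, 2444 and 2601 normalized counts in mutant males, against 2409, 2282 and 2395 in wild-type males. These groups did not overlap either, and its log2 difference was 0.11 ± 0.04 (adjusted p = 0.449, limma). Rpl35, which borders the same tunnel exit as Rpl23a, had 534, 444 and 516 normalized counts in mutant males, against 466, 356 and 449.5 in wild-type males, which overlap. Over the 82 members the median male difference was 0.0051 on the log2 scale, with 36 of 82 below 0, against 49.4% of all tested genes. Leaving out the 3 libraries low in choroid plexus markers left mutant male 1 as the only mutant male. The male median was then 0.050, with 16 below 0. It was 0.036 without mutant male 2, -0.017 without mutant male 1 and -0.014 without wild-type male 2, and the unadjusted count of 8 was 4 without mutant male 1 (against 12.3% of all tested genes) and 2 without wild-type male 2 (against 7.04%). With the choroid plexus marker level as covariate the male median was 0.052, and the unadjusted count was 12, against 8.18% of all tested genes. Of the marker lists, 2 also separated mutant from wild-type males. The mean log2 level of 5 ependymal markers was 6.97 to 7.89 in mutant males, against 8.08 to 8.27 in wild-type males, and that of the pyramidal neuron markers 13.99 to 14.12, against 13.88 to 13.93. No marker of either list was at 0, and their part in the male differences was not tested.

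In females alone the members leaned the other way without any passing the threshold. In limma 0 of 82 members and 0 (0%) of all tested genes had an adjusted p under 0.05. Unadjusted, 2 members (2.44%), Rpsa and Rps14, had a p under 0.05 in limma, against 6.9% of all tested genes. By edgeR there were 2, against 7.05% of all tested genes, and by DESeq2 2, against 5.42%. Rpsa, a small-subunit protein also known as a laminin receptor, had 8521, 8458 and 8488 normalized counts in mutant females, against 9190.3, 9621 and 8908 in wild-type females. The groups did not overlap, and the log2 difference was -0.12 ± 0.04 (adjusted p = 0.590, limma). Males overlapped, with 8716, 8202 and 8801 in mutants, against 8714, 8235 and 8711 in wild types. Rps27rt had 116, 98.8 and 98.4 normalized counts in mutant females, against 118, 136 and 127 in wild-type females, and its log2 difference was -0.28 ± 0.15 (adjusted p = 0.775, limma). Rpl12, a protein at the foot of the stalk, had 2840.4, 2787 and 2886 in mutant females, against 2959.6, 3071 and 2956 in wild-type females, a log2 difference of -0.08 ± 0.04 (adjusted p = 0.793, limma). For both of these genes every mutant female lay below every wild-type female. In all, 8 members were lower in every mutant female (9.76%, against 5.66% of all tested genes) and 0 were higher (0%, against 5.14%). The median was -0.024 on the log2 scale, with 60 of 82 members below 0, against 49.5% of all tested genes. Without wild-type female 2 it was -0.0043 with 45 below 0, and without wild-type female 1 it was -0.048 with 67 below 0. Without wild-type female 1, 4 members had an unadjusted p under 0.05 in limma, against 7.25% of all tested genes. Leaving out all 3 libraries low in choroid plexus markers, of which wild-type female 1 is the only female, gave the same median. With the choroid plexus marker level as covariate the median was -0.046 with 67 below 0. The unadjusted count was then 9, against 8.20% of all tested genes. Of the marker lists, 3 separated mutant from wild-type females. The mean log2 level of 5 oligodendrocyte markers was 15.04 to 15.22 in mutant females, against 15.27 to 15.48 in wild-type females. That of 5 red blood cell markers was 7.60 to 8.10, against 6.78 to 7.41, and that of 4 fibroblast markers 9.46 to 10.8, against 8.63 to 9.04. No marker of these lists was at 0. The summed normalized counts of the red blood cell markers were 1267 to 1793 in mutant females, against 748 to 1081 in wild-type females, and the part of these cells in the lean was not tested.

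**Figure D4:**
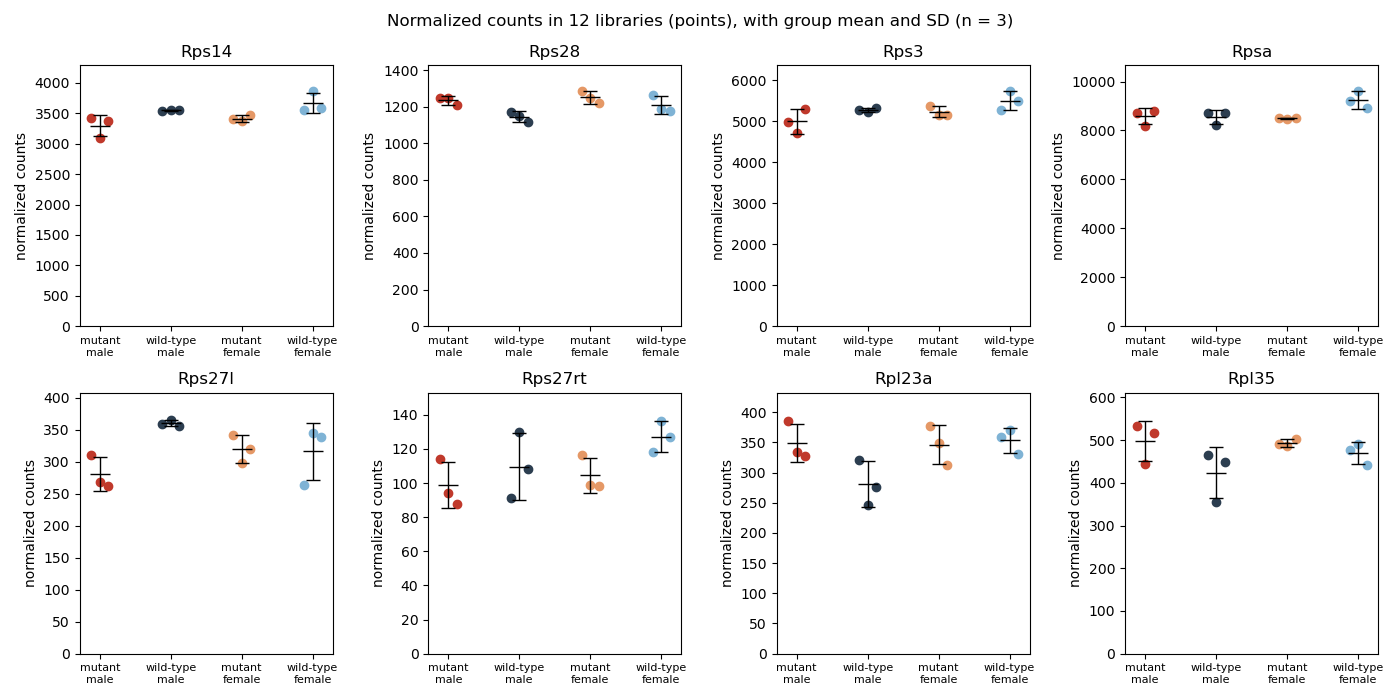
Normalized counts of 8 ribosomal protein genes in 12 libraries (points) with group mean and SD (lines, n = 3); axes start at 0. Only for Rps14 do all mutants lie below all wild types in both sexes, and the low-count genes in the bottom row spread most.

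Whether the genotype effect differed between the sexes was tested as an interaction, the male effect minus the female effect. No member passed the threshold in limma, and 0 (0%) of all tested genes did. By edgeR 3 members had an unadjusted p under 0.05, against 6.86% of all tested genes, and by DESeq2 3 did, against 5.37%. In limma 3 members (3.66%) had an unadjusted p under 0.05, against 7.85% of all tested genes. They were Rps27l at -0.39 ± 0.15 (adjusted p = 0.619), Rpl23a at 0.35 ± 0.15 (adjusted p = 0.619) and Rpsa at 0.12 ± 0.06 (adjusted p = 0.629, log2 difference ± SE, limma). Rpl31, another protein near the tunnel exit, followed at 0.11 ± 0.06 (adjusted p = 0.678, limma), and 25.3% of its exon bases overlap Tbc1d8 on the opposite strand. Rps26 was the only member whose groups were separate in both sexes in opposite directions. The share of all tested genes placed this way was not counted, so how unusual this is cannot be told. Rps26 had 1908, 1923 and 1943 normalized counts in mutant males, against 1880.5, 1869 and 1875 in wild-type males. In females it had 1922, 1911 and 1921 in mutants, against 1936, 1932 and 1963 in wild types. All of these values lie within a few percent of each other, and the interaction was 0.06 ± 0.04 on the log2 scale (adjusted p = 0.789, limma). The median interaction of the members was 0.038, with 19 of 82 below 0, against 48.4% of all tested genes. Without the 3 libraries low in choroid plexus markers, with mutant male 1 as the only mutant male, it was 0.11. Without wild-type female 2 it was 0.0074, and without mutant male 2 it was 0.071. With the choroid plexus marker level as covariate the median was 0.110 with 6 below 0. The unadjusted count was then 9, against 6.48% of all tested genes.

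Within wild types, ribosomal protein genes tended to lie lower in males than in females, without any member passing the threshold. In limma 0 of 82 members had an adjusted p under 0.05, against 0.0457% of all tested genes. Unadjusted, 13 members had a p under 0.05 and all 13 were lower in males (15.9% of members). Of all tested genes 6.43% had a p under 0.05, and 3.21% had such a p and were lower in males. By edgeR there were also 13, against 6.28% of all tested genes, and by DESeq2 13, against 4.75%. Every wild-type male lay below every wild-type female for 23 members (28.0%, against 6.45% of all tested genes), and 76 of 82 differences were below 0, against 51.3% of all tested genes. The median was -0.067 on the log2 scale, against -0.0027 over all tested genes. Many members shifted together within a library, so these counts do not stand for as many independent observations. By library, the median deviation of the members was 0.0034, -0.053 and -0.024 in wild-type males. In wild-type females it was -0.011, 0.080 and 0.044, so the sexes overlapped. Rpl28, a large-subunit gene, had 2139.5, 2067 and 2194 normalized counts in wild-type males, against 2303, 2344 and 2308 in wild-type females. Its groups did not overlap and its log2 difference was -0.12 ± 0.04 (adjusted p = 0.751, limma). Rpl23a and Rpsa, whose libraries likewise did not overlap, stood at -0.33 ± 0.11 and -0.11 ± 0.04 (adjusted p = 0.751 for each). Rps27l went the other way, with every wild-type male above every wild-type female and a log2 difference of 0.20 ± 0.11. It was the only member so placed (1.22%, against 5.83% of all tested genes).

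This sex difference rested in part on single libraries. The unadjusted count of 13 was 3 without wild-type female 2 (against 5.58% of all tested genes) and 6 without wild-type male 2 (against 4.15%). It was 20 without wild-type female 1 (against 5.19%), where the median over members was -0.090. Leaving out all 3 libraries low in choroid plexus markers gave the same median. With the choroid plexus marker level as covariate the median was -0.102, and the unadjusted count was 31, against 5.81% of all tested genes. With total-count scaling the unadjusted count was 8, against 6.41% of all tested genes. The median over members was -0.044 without wild-type female 2. Of the marker lists, 3 also separated these groups. The mean log2 level of the red blood cell markers was 7.78 to 8.55 in wild-type males, against 6.78 to 7.41 in wild-type females, and their summed normalized counts were 1435 to 2469, against 748 to 1081. That of the oligodendrocyte markers was 15.11 to 15.24 in wild-type males, against 15.27 to 15.48 in wild-type females. The pyramidal neuron markers stood at 13.88 to 13.93 in wild-type males, against 13.93 to 14.11 in wild-type females, so that these ranges nearly touched. The part of these cells in the difference was not tested. The wild-type males and females compared here are the same libraries that enter the male and female genotype comparisons. Mutant males against mutant females gave a smaller shift, with a median of -0.031, 63 of 82 members below 0 (against 51.6% of all tested genes), 8 lower in every mutant male (9.76%, against 5.85%) and 0 higher in every mutant male (0%, against 6.86%). In that comparison limma called 0 members, against 0.0629% of all tested genes, and 1 member, the X-linked Rps4x, had an unadjusted p under 0.05 (1.22%, against 7.14%). Rps4x had 5014, 4997 and 5103 normalized counts in mutant males, against 5211, 5341 and 5275 in mutant females, a log2 difference of -0.07 ± 0.03 (adjusted p = 0.680, limma). Without mutant male 2 the median of that comparison turned to 0.012 and the unadjusted count was 0, against 6.04% of all tested genes.

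**Figure D5:**
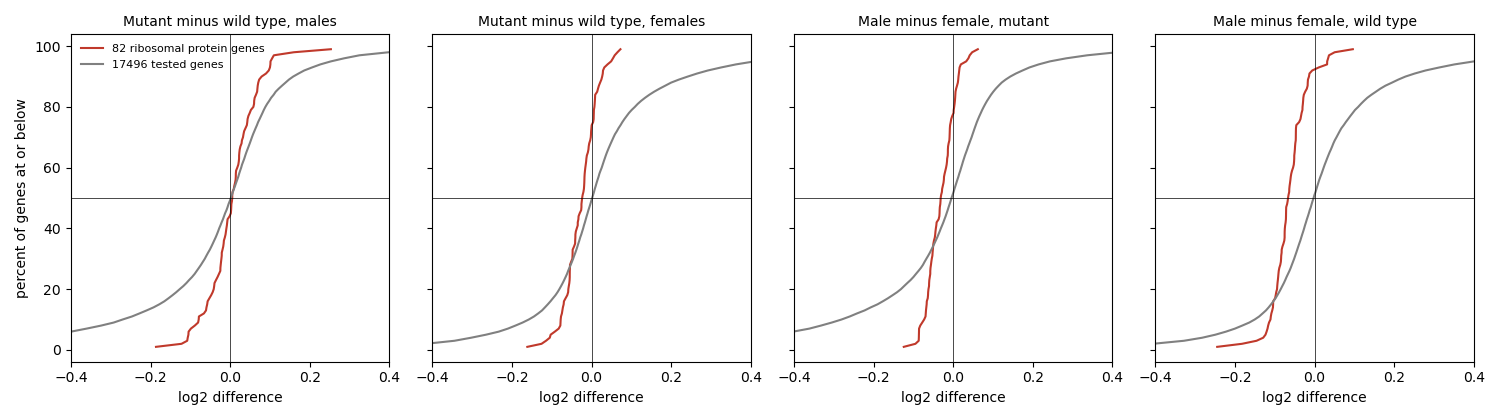
Cumulative share of genes (y axis, percent) at or below a log2 difference (x axis) for the 82 ribosomal protein genes and for the 17496 tested genes, in 4 comparisons. The member curve is steeper than that of all genes in each panel, and in wild types it crosses 50% at -0.067, left of the curve of all genes at -0.0027.

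The genes that make, start and feed the ribosome were looked at beside its proteins. In the averaged genotype comparison limma called 0 genes, in either direction, in each of the lists. Over all tested genes 8.87% had an unadjusted p under 0.05 there, in both directions together. Of 40 initiation factors, 3 were higher and 2 lower at an unadjusted p under 0.05. Among 16 elongation factors and related genes the counts were 1 and 1, and among 65 assembly factors 2 and 1. RNA polymerase I and its factors gave 0 and 0 of 15. Of 77 mitochondrial ribosomal protein genes, which encode the separate ribosome of mitochondria, 4 were higher and 1 lower, and the median was 0.014 on the log2 scale. Among 25 genes of mTORC1 and TOP control 2 were higher and 0 lower. These were Rheb, the small GTPase that switches mTORC1 on, at 0.12 ± 0.03 (adjusted p = 0.359), and the transcription factor gene Mycn at 0.27 ± 0.09 (adjusted p = 0.417, log2 difference ± SE, limma). The host genes of small nucleolar RNAs, several of which carry TOP tracts, gave 0 higher and 2 lower of 6. Snhg12 had 282, 301 and 283 normalized counts in mutant males, against 282, 351 and 324 in wild-type males. In females Snhg12 had 269, 279 and 256 in mutants, against 347, 337 and 312 in wild types. Only the female groups were separate, and the averaged log2 difference was -0.22 ± 0.06 (adjusted p = 0.341, limma). Gas5, another such host gene, stood at -0.08 ± 0.03 (adjusted p = 0.509, limma). Fau, which encodes the small-subunit protein Rps30 as a fusion, and Rack1, whose product sits on the small subunit, have symbols outside the naming rule and stood at -0.06 ± 0.04 and -0.02 ± 0.03 (log2 difference ± SE).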

How the data were processed

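Each of the 12 libraries holds RNA-seq of whole hippocampus, and the labels' protocols give a TruSeq v2 kit, which does not mark strand, for library preparation. Tools in the submitters' processing notes are DESeq2, HTSeq, TopHat2 2.1.0 and Trimmomatic 0.35, with GRCm38 as the build. The release of the gene annotation is not stated in those notes. As deposited, each value is a signal, namely the reads of an Ensembl gene over its library's size factor, called normalized counts here. Per library they were whole multiples of a single step, so reads were recovered, 100% of them whole within 0.001 reads. The design had allowed for values of this kind beside raw counts. Of the columns in the table, 0 belonged to no sample of the series.

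Symbols and coordinates (1-based, GRCm38) came from GENCODE M21, which matched 45229 of 46078 IDs. Tests used log2(value + 1) of the 17496 genes whose mean reached 10, in limma 3.58.1 (R 4.3.3) with a trend and 1 mean for each group. Adjusted p-values follow Benjamini-Hochberg over these genes at 0.05. Differences are on the log2(value + 1) scale, which understates those of low genes. The averaged comparison was checked on simulated counts of 17496 genes, with the same dispersion for all genes. It recovered 49.25% of genes changed by 0.25 on the log2 scale and 100% of those changed by 0.5 or 1. There were 7 false calls, and smaller changes were not simulated. All changed genes had a mean of at least 100, and no shift shared by many genes within a library was simulated. The shares recovered may therefore not hold for the real libraries. Share of 50-base stretches and of exon bases held in common with other genes was read from the GENCODE transcripts. Promoter windows came from RefSeq, build GRCm38.p6.

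Alternatives were edgeR 4.0.16 and DESeq2 1.42.0 on recovered reads, upper-quartile and total-count scaling, no minimum or a minimum mean of 50, pseudocounts of 0.5 and 10, each library left out, a replicate block, the compared groups alone, the choroid plexus score as covariate, and leaving out the 3 libraries lowest in it. Named genes were the 4 members of smallest p in the averaged, male, female, interaction and wild-type sex comparisons, the 4 highest, 4 lowest and 4 most variable, up to 3 on each side of the mean of 100, a set chosen for known roles, and up to 3 per pathway list. Rps26, Rps4x in mutants, Rpl35 in males and Rpl24 were singled out after their values were seen. The values of 1 member and of 1 gene outside the naming rule, and an alternative for the share of reads that counts that gene, are not reported here. The members and lists were chosen with earlier results of these data known.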

Additional observations from a re-analysis of the deposited data

How the results depend on the processing

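No member passed the threshold in any comparison under any alternative run; the smallest adjusted p of a member was 0.102 (males, without mutant male 1). The members of smallest p in the averaged, male, female, interaction and wild-type sex comparisons gave 448 values under alternatives. These kept their direction, which the choice by smallest p favours. Part of them could not differ from the main value. With 1 mean for each group, leaving out a library of a group not compared returns the same difference. So do another minimum mean, the replicate block and the compared groups alone. The other named members were not followed in this way. Of 154 alternative medians over the members, 7 moved by more than 0.038, the pooled SD of the per-library member median. The 154 also include medians that could not differ from the main one. With the choroid plexus score as covariate, or without the 3 libraries lowest in it, the male median was 0.052 and 0.050, the interaction 0.110 and 0.110, and mutant males against mutant females 0.011 and 0.013. Without those 3 libraries mutant male 1 was the only mutant male. The median of mutant males against mutant females was -0.053 to 0.012 when single libraries were left out. The cause was not tested. Chd8 kept a log2 difference of -0.22 without a filter (adjusted p = 0.0538), and of -0.24 to -0.21 with a library left out. A TOP-like start within 5 bases was found in 50%, 48.4% and 43.5% of members with at least 3, 4 and 5 pyrimidines after the cytosine.

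Over all tested genes, limma without alternatives called 1, 0, 0 and 0 in the averaged, male, female and interaction comparisons. Under alternatives the calls ran from 0 to 82, 0 to 35, 0 to 11 and 0 to 3. In wild types by sex they ran from 8 to 23, and in mutants by sex from 9 to 26.

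The replicate numbers were not found to pair libraries: over 18 same-numbered pairs r was -0.581 to 0.287, and 3 of 12 libraries correlated best with their own number. With the replicate block, Chd8 stood at -0.22 (adjusted p = 0.131) and 0 members passed in any comparison. The widest 95% interval of the averaged difference among the members was that of Rps27rt, -0.44 to 0.02; the part of depth in it was not tested.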

Other observations

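The symbols of 257 rows mark pseudogenes of ribosomal protein genes, and these rows held few reads. Their sum was 0.658% to 0.833% of the reads of the members in each library, 99 were at 0 in every library, 25 had a mean of at least 10 normalized counts and 4 of at least 100. At least 1 such row shares its name with 55 of the 82 members, and the largest number for a member was 22. In the transcripts of the members a median of 35.8% of 50-base stretches also occur in another gene. In 27 members the share was 50% or more, and their median SD within groups was 0.058, against 0.059 in the 51 members with a smaller share above 0.

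Rps4l, annotated as a transcribed processed pseudogene related to Rps4x, had 332, 556 and 486 normalized counts in mutant males, against 211, 464 and 339 in wild-type males. In females it had 414, 276 and 493 in mutants, against 387, 213 and 288 in wild types. The groups overlapped in both sexes, and its log2 difference averaged over the sexes was 0.45 ± 0.22 (SE, adjusted p = 0.583, limma). Within each group its values spread more than those of Rps4x, whose SD over the 12 libraries was 0.034 on the log2 scale.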
